A study of Homo sapiens with 4 samples.

Results

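Metallothioneins, the small cysteine-rich proteins that bind zinc and copper, were followed here in the RNA of LoVo cells with and without MET, together with MTF1, the factor that switches metallothionein genes on. The genes were chosen by name, as 8 metallothionein genes of chromosome 16 (MT1E, MT1F, MT1G, MT1H, MT1M, MT1X, MT2A and MT3) and MTF1 of chromosome 1, which makes 9 of the 58825 genes in the count files. Of these 9 genes, 8 had a count in at least 1 library and all 8 were expressed enough to be tested, MT1H being the gene left out. In MET-KO cells MT1E, MT2A, MT1X, MT1F and MT1M were higher, MT1G was almost absent and MTF1 was slightly lower. The differences of MT1M and MTF1 did not pass the test in some other ways of fitting the data.

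LoVo is an established human line from a colon adenocarcinoma, grown in DMEM with fetal bovine serum, in which the MET receptor is active without its ligand. The MET+ group held 2 libraries from cells of wild-type genotype, whose sample names mark them as a GFP control. The MET-KO group held 2 libraries from LoVo cells in which MET had been disrupted with Cas9 and a guide RNA, under puromycin selection, from single colonies picked by hand and chosen by Western blot, and the sources do not say whether both libraries come from the same clone. All 4 libraries were made from total RNA with the QuantSeq 3' kit, which reads each polyadenylated transcript at its 3' end, and a long transcript thus gives no more counts than a short one, and the labels name no added metal for either group.

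Metallothioneins carry a large number of cysteines that hold zinc and copper ions in clusters, and they buffer free zinc, store metal and take up oxidants and cadmium. MTF1 senses zinc in the cytosol, moves to the nucleus and binds metal response elements, short repeats in front of metallothionein genes and of SLC30A1, which encodes a zinc exporter of the plasma membrane. In the gut epithelium metallothioneins are known to rise with dietary zinc, and MT3 is known from the brain.

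The metallothionein genes lie side by side between positions 56565049 and 56684196 of chromosome 16 (GRCh38, GENCODE version 29), a stretch of 119 kb. Each gene was represented by its annotated coding sequence nearest in length to that of MT2A, a choice that favours equal lengths. In these sequences all but MT3 have 183 bases, and in every one of the 8 genes 20 codons encode cysteine. The coding sequence of MT1E is 94.5% identical to that of MT1G and 92.3% to that of MT2A, while MT3 has 204 coding bases and is 73.0% to 76.0% identical to the other members. In the coding sequences compared, the genes that behaved differently in these libraries are close copies.

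Promoter windows of 300 bases (250 before and 50 after the start site, from RefSeq on GRCh38.p14) could be matched for 4 of the 9 genes, MT2A, MT1X, MT1H and MTF1. They were searched on both strands for the core of the metal response element, written as TGCACNC or TGCGCNC, where N is any base. The windows of MT2A and MT1X, which rose in MET-KO cells, and of MT1H, which had no reads, are shown with each match on either strand in capitals, and no match overlapped another.
MT2A (chr16:56608334-56608633, plus strand): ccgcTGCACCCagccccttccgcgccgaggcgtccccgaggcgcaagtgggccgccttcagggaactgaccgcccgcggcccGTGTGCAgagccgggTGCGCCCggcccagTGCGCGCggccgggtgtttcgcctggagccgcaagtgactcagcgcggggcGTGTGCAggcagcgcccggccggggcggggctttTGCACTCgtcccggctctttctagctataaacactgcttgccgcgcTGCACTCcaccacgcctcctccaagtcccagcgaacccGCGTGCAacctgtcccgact
MT1X (chr16:56682220-56682519, plus strand): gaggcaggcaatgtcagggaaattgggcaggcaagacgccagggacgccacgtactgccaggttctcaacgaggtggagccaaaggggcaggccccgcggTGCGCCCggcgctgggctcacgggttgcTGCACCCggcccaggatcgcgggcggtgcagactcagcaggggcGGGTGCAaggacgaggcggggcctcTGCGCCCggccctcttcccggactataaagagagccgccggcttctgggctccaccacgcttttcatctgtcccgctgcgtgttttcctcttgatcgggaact
MT1H (chr16:56669564-56669863, plus strand): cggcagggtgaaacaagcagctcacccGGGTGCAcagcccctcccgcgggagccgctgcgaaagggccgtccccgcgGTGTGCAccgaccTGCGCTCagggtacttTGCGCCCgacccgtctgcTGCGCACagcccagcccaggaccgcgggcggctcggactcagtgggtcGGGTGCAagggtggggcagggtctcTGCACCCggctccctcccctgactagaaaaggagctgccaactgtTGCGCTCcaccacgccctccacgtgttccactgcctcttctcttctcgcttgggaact
The MT2A window held 8 matches, 7 of them before the start site. The MT1X window held 4 and the MT1H window 8, all before the start site. Of 35116 windows of the same length, 29.6% held at least 1 match, 0.601% held 4 or more and 0.0199% (7 windows) held 8 or more. The window of MTF1 held 0. A match describes the sequence and does not show that a factor was bound there, and the count of matches did not separate the expressed MT2A from the silent MT1H.

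Library totals were 8429142 and 10286552 for MET+ and 10137583 and 10228991 for MET-KO. Levels are given as CPM, counts divided by the TMM-scaled library size, and a gene with 0 counts could still have had 3 counts, or 0.292 to 0.356 CPM of the library total (counting error only). MET itself fell from 337 ± 1.26 CPM (SD, n = 2) to 86.6 ± 3.14 CPM (SD, n = 2), a log2 fold change of -1.96 (adjusted p = 1.49e-18, edgeR). Of 11 markers of colon epithelium 10 had counts, with CDX1 at 0, and their summed level was 9679 and 9712 CPM in MET+ against 8321 and 7337 CPM in MET-KO cells. Of the 10 markers tested, 2 were called higher and 7 lower (edgeR), while 27.2% of all genes tested were called higher and 26.9% lower. LGALS4, CDH17 and VIL1 were nearly lost from MET-KO cells, with at most 3 counts a library, while KRT20 went from 0 counts in MET+ to 27 and 28 in MET-KO cells and CDX2 rose 2.06-fold. LYZ, the lysozyme gene of myeloid and some gut epithelial cells, had 38 and 79 counts in MET+ and 3 and 1 in MET-KO cells and was called lower. The part of such differences between the cells in the metallothionein results was not tested. The 7 fibroblast markers summed to 2.18 and 1.64 CPM in MET+ and to 3.63 and 4.33 CPM in MET-KO cells. Of the 2 that were tested, COL3A1, named after its values were seen, was called higher, with 4 and 5 counts in MET+ and 24 and 26 in MET-KO cells. The 4 endothelial markers summed to 0.846 and 0.924 CPM in MET+ and to 0.0981 and 0 CPM in MET-KO cells. Reads on 9 Y-linked genes numbered 6773 and 6756 in the MET-KO libraries against 0 in MET+, which the labels do not account for. The groups thus differ in more than MET, and such a difference and an effect of MET cannot be told apart in any result given here.

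The question put to these libraries was how the metallothionein genes differ between cells with an active MET receptor and cells that lost it. A gene was called when the adjusted p of edgeR's quasi-likelihood test (Benjamini-Hochberg over the 13801 genes tested) was below 0.05. Of the 8 members tested, 5 were called higher in MET-KO cells, 2 were called lower and 1 was not called. Over all genes tested 54.1% were called, 27.2% higher and 26.9% lower, so a call by itself is common in these data. The members called higher with a log2 fold change of at least 1 numbered 4 of 8, against 14.5% of all genes, and those called lower by at least as much numbered 1 of 8, against 9.81%. The median log2 fold change of the 8 was 0.99, and that of all genes was 0.01. For all 8 the 2 MET-KO libraries lay on one side of the 2 MET+ libraries, as they did for 75.6% of all genes. With 2 libraries a group the smallest two-sided p of an exact permutation test is 0.333, and each call therefore leans on edgeR's estimate of spread over many genes. The labels call the samples biological replicates without naming separate cultures. The p-values rest on the spread between these samples as estimated over many genes, and whether that spread covers separate cultures or clones is not known.

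**Figure D1:**
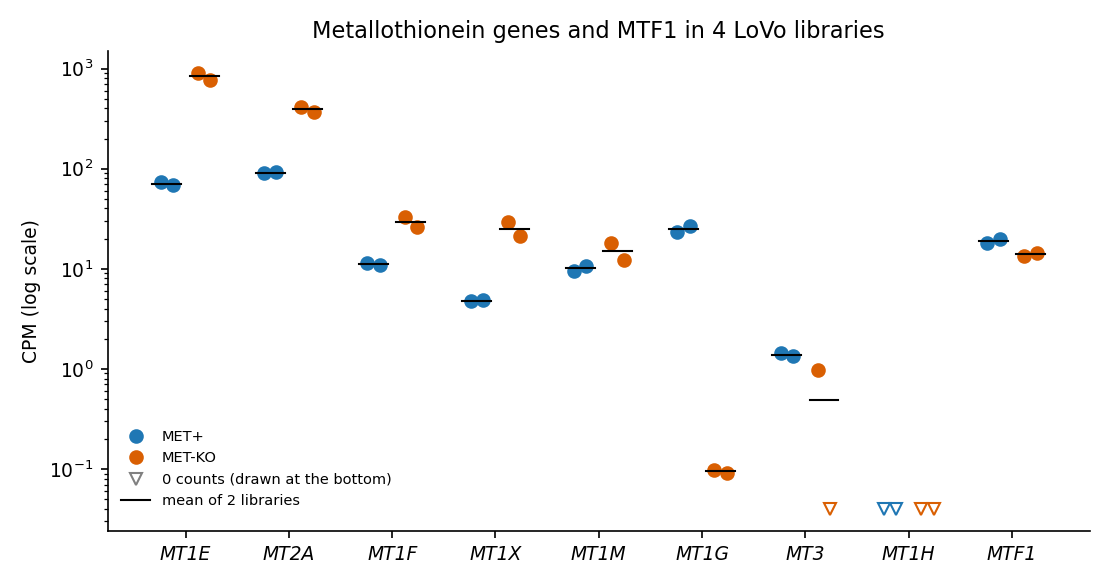
CPM on a log axis of the 8 metallothionein genes and MTF1 in each of the 4 libraries (points; 2 MET+ and 2 MET-KO), with the mean of each group as a line and libraries with 0 counts as open triangles at the bottom. MT1E stands between 68.5 and 72.7 CPM in MET+ and between 769 and 911 CPM in MET-KO cells, and MT1G falls from over 23 CPM to under 0.1 CPM.

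MT1E (ENSG00000169715, chromosome 16, 56625475 to 56627112, plus strand), a classical metallothionein, showed the highest level of the members in MET-KO cells. Its counts were 602 and 667 in MET+ against 9295 and 8354 in MET-KO cells, or 72.7 and 68.5 CPM against 911 and 769 CPM. Both MET-KO libraries were far above both MET+ libraries. The mean rose 11.9-fold, from 70.6 ± 3.03 to 840.3 ± 100.5 CPM (SD, n = 2 each), which is 3.57 on the log2 scale (standard error 0.11, adjusted p = 1.74e-24, edgeR). Ordered by log2 fold change from the highest, it stood at place 436 of 13801.

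MT2A (ENSG00000125148, chromosome 16, 56608199 to 56609497, plus strand), the broadly expressed isoform 2, stood at 89.8 and 91.6 CPM in MET+ and at 417 and 365 CPM in MET-KO cells. The groups were separated by a gap several times wider than the spread within either. The mean rose 4.31-fold, from 90.7 ± 1.25 to 391 ± 36.8 CPM (SD, n = 2 each), which is 2.11 on the log2 scale (standard error 0.10, adjusted p = 5.42e-19, edgeR).

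MT1X and MT1F, further isoforms of the MT1 group, rose from lower levels. MT1X (ENSG00000187193, chromosome 16, 56682424 to 56684196, plus strand) had 39 and 47 counts in MET+ and 296 and 229 in MET-KO cells, or 4.71 and 4.82 CPM against 29.02 and 21.1 CPM. It rose 5.25-fold, or by 2.39 on the log2 scale (standard error 0.21, adjusted p = 1.26e-11, edgeR). It overlaps the gene AC026461.1 on the same strand, which had 0 counts in all libraries. MT1F (ENSG00000198417, chromosome 16, 56657694 to 56660698, plus strand) stood at 11.5 and 10.9 CPM in MET+ and at 32.7 and 26.3 CPM in MET-KO cells. It rose 2.64-fold, or by 1.40 on the log2 scale (standard error 0.17, adjusted p = 1.08e-08, edgeR). For both genes the lower MET-KO library was the second replicate, as for MT1E and MT2A, and it still lay above both MET+ libraries.

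MT1M (ENSG00000205364, chromosome 16, 56632233 to 56633986, plus strand) was the least firm of the calls toward higher levels. It had 78 and 105 counts in MET+ and 185 and 132 in MET-KO cells, or 9.43 and 10.8 CPM against 18.1 and 12.2 CPM, so that the second MET-KO library lay close to the second MET+ library. The fitted log2 difference was 0.58 (standard error 0.21, adjusted p = 0.0185, edgeR). Without the first MET-KO library the log2 fold change was 0.26 and the adjusted p 0.448 (edgeR), and without the first MET+ library they were 0.49 and 0.0555. DESeq2's Wald test gave an adjusted p of 0.0943.

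MT1G (ENSG00000125144, chromosome 16, 56666731 to 56668065), which lies on the minus strand, unlike the other metallothionein members, went the other way. Its counts were 191 and 262 in MET+ cells and 1 in each MET-KO library, or 23.1 and 26.9 CPM against 0.0981 and 0.0921 CPM. The MET-KO values lie below the 3 counts that a library with 0 counts allows. The ratio of the summed counts, MET+ over MET-KO, was 265 (95% exact interval 72.9 to 2193, counting error only). The test gave an adjusted p of 5.70e-18 (edgeR), and by log2 fold change MT1G ranked 77 of 13801 from the lowest. Its neighbours within the cluster, MT1F on one side and MT1X further on the other, rose in the same libraries.

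MT3 (ENSG00000087250, chromosome 16, 56589074 to 56591088, plus strand), known as the neuronal growth inhibitory factor, was near the limit of detection. It had 12 and 13 counts in MET+ and 10 and 0 in MET-KO cells, and its log2 fold change of -1.52 (standard error 0.71) did not pass the test (adjusted p = 0.0700, edgeR). The value rests on the library with 0 counts. Without the first MET-KO library, which leaves 0 counts for that group and a fitted value that depends on the prior count, the log2 fold change was -6.76 (adjusted p = 0.00557, edgeR), and without the second it was -0.49 (adjusted p = 0.695). MT1H (ENSG00000205358, chromosome 16, 56669814 to 56671129, plus strand), which lies between MT1G and MT1X, had 0 counts in all 4 libraries.

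MTF1 (ENSG00000188786, chromosome 1, 37809567 to 37859620, minus strand), the metal sensor, stood at 18.0 and 20.01 CPM in MET+ and at 13.5 and 14.5 CPM in MET-KO cells. The log2 difference was -0.44 (standard error 0.17, adjusted p = 0.0281, edgeR), a small change in the direction opposite to that of MT1E and MT2A. The call was lost without the second MET+ library (adjusted p = 0.136, edgeR) and without either MET-KO library (0.135 without the first, 0.0656 without the second). It was also lost with scaling by library totals alone (0.115) and in DESeq2's Wald test (0.123). The log2 fold change of MTF1 stayed between -0.51 and -0.34 in all 12 alternatives. In each library MT2A had 4.57 to 4.99 counts per MTF1 count in MET+ cells and 25.2 to 30.8 in MET-KO cells.

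**Figure D2:**
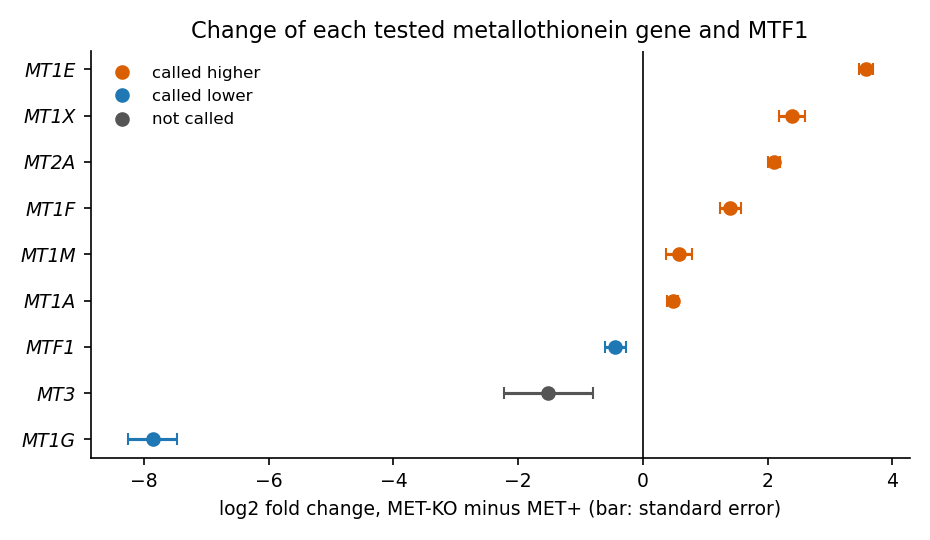
Log2 fold change (MET-KO minus MET+) of the 8 tested members and of MT1A, with the standard error as bars and the result of edgeR's test as colour. The values run from 3.57 for MT1E to -7.86 for MT1G, whose fitted value depends on the prior count because its MET-KO libraries hold 1 count each.

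The make-up of the metallothionein RNA differed between the groups along with its amount. The CPM of the 8 metallothionein members added up to 213 and 215 for MET+ and 1409 and 1194 for MET-KO, a 6.09-fold difference of the means, and a 3.22-fold difference without MT1E. With MT1A, a metallothionein gene of the same cluster that is not among the 9 genes, the sums were 429 and 439 CPM for MET+ and 1724 and 1492 CPM for MET-KO, a 3.71-fold difference. These sums are descriptions, with no test. MT1A was the most abundant of the family in MET+ cells. Its counts were 1787 and 2184 in MET+ and 3208 and 3235 in MET-KO cells, a rise of 0.48 on the log2 scale (standard error 0.09, adjusted p = 3.49e-05, edgeR).
Among the counts on these 8 genes and MT1A, MT1A held 50.4% (95% Wilson interval 48.7% to 52.0%) and 51.1% (49.6% to 52.6%) in the MET+ libraries. In the MET-KO libraries it held 18.2% (17.7% to 18.8%) and 19.97% (19.4% to 20.6%). MT1E held 17.0% (15.8% to 18.2%) and 15.6% (14.5% to 16.7%) in MET+, against 52.9% (52.1% to 53.6%) and 51.6% (50.8% to 52.3%) in MET-KO cells. The leading gene thus passed from MT1A to MT1E. The share of MT2A moved less, from 20.9% in each MET+ library to 24.2% and 24.5% in the MET-KO libraries. Such shares and the ratios between genes of a library do not depend on how libraries are scaled, and the intervals cover counting error only.
Within a library, MT1E had 0.810 and 0.748 counts per MT2A count in MET+ cells and 2.19 and 2.11 in MET-KO cells. MT1F went the other way, with 0.128 and 0.119 counts per MT2A count in MET+ and 0.0783 and 0.0722 in MET-KO cells. MT1X kept nearest to MT2A, with 0.0525 and 0.0527 in MET+ and 0.0696 and 0.0578 in MET-KO cells. For each of these ratios the groups did not overlap, and the exact permutation test gave the smallest p it allows, 0.333 (two-sided).

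Close copies can exchange reads, and the ends of these transcripts were compared for that reason. Of the stretches of 50 bases in the last 300 bases of the coding transcripts, 7.81% of those of MT1E, 13.2% of MT2A, 17.2% of MT1G and 22.3% of MT1X also occur exactly in a transcript of another gene. With stretches of 75 bases the shares were 0% for MT1E, MT1F, MT2A and MT1A, 0.521% for MT1M, 5.14% for MT1G and 8.19% for MT1X. MT1G shared its 75-base stretches with MT1X and the pseudogene MT1XP1. The read length and the treatment of reads that match several genes are not given in the sources used here, so the counts of MT1X, MT1G and MT1H, which share stretches at both lengths, and of MT1M are less certain than those of MT1E and MT2A. Of the 13 other metallothionein genes and pseudogenes examined, 7 had a count. MT1A was the gene that could be tested among them. MT1XP1 had 4 and 1 counts in MET+ and 10 and 4 in MET-KO cells. The pseudogene MT1DP had 1 and 0 counts in MET+ and 8 and 9 in MET-KO cells, and MT1P3 and MT2P1 had 0 in MET+ and between 4 and 8 in MET-KO cells. These 3 pseudogenes are named after their values were seen. Of the stretches of 50 bases, 54.7% of those of MT1P3 and 15.7% of those of MT2P1 occur in transcripts of other genes, MT1E among them. For MT1DP the share was 0%. MT1P3 also overlaps MMP24OS on the other strand, which had 727 counts over all libraries. Whether the few counts of MT1P3 and MT2P1 are reads of other genes was not tested. MT1B and MT4, which lie in the same cluster, had 0 counts in all libraries.

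Genes around the cluster did not share one direction. Of 68 other annotated genes within 1 Mb of it, 20 were tested, with 6 called higher, 6 called lower and 8 not called, around a median of 0.02 on the log2 scale. Over all genes tested 27.2% were called higher and 26.9% lower, so calls in both directions are common in these data. The 629 tested genes of chromosome 16 outside the metallothioneins had a median of 0.03. The nearest tested gene before the cluster, BBS2, which encodes a subunit of the BBSome of the cilium, stood at 19.8 and 20.9 CPM in MET+ and at 35.0 and 31.8 CPM in MET-KO cells (log2 fold change 0.71, adjusted p = 6.69e-05, edgeR). The nearest after it, NUP93, which encodes a nucleoporin, had a log2 fold change of 0.32 (adjusted p = 0.00988, edgeR), and lost the call without the first MET-KO library (0.18, adjusted p = 0.243) and without the first MET+ library (0.28, adjusted p = 0.0675). The largest differences in the region were those of LPCAT2, a lysophospholipid acyltransferase gene (2.53), and ADGRG5, an adhesion receptor gene (-1.73). The log2 fold changes of MT1E and MT1G lay outside this range on either side.

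Among the genes that move zinc, SLC30A1, which exports zinc from the cell and is a known target of MTF1, stood at 27.7 and 23.9 CPM in MET+ and at 54.9 and 48.6 CPM in MET-KO cells. It rose 2.01-fold, or by 1.01 on the log2 scale (standard error 0.13, adjusted p = 3.15e-08, edgeR), the largest rise of its family. Of the 10 SLC30 genes, which export zinc or load it into vesicles, 7 were tested, 3 being called higher and 3 lower around a median of -0.15 on the log2 scale. Leaving out the first MET+ library kept 1 call toward higher levels. SLC30A3, which loads zinc into vesicles, was the lowest at -0.72 (adjusted p = 1.75e-06, edgeR). Of the 14 SLC39 genes, which bring zinc into the cytosol, 11 were tested, with 3 called higher and 3 lower and a median of 0.06. SLC39A8, an importer of zinc, manganese and cadmium, fell from 35.8 ± 2.71 to 8.73 ± 0.553 CPM (SD, n = 2 each, adjusted p = 1.13e-12, edgeR), and SLC39A11 rose from 6.40 and 7.60 CPM to 20.4 and 18.5 CPM (adjusted p = 1.16e-07, edgeR). SLC39A10, an importer gene that MTF1 is known to hold down, had a log2 fold change of -0.71 (adjusted p = 4.63e-05, edgeR), and it is named after its values were seen. The shares called in both families are to be read against the 54.1% of all genes.

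Genes of copper handling, the other metal bound by metallothioneins, moved in both directions. Of 14 gene entries 12 were tested, 3 were called higher and 3 lower, and the median log2 fold change was 0.14. Over all genes tested 27.2% were called higher and 26.9% lower, and the counts in this paragraph are to be read against these shares. ATOX1, a copper chaperone, rose from 74.8 ± 3.20 to 132.7 ± 2.53 CPM (SD, n = 2 each, adjusted p = 9.21e-09, edgeR), and COX11, a copper chaperone of the mitochondrial respiratory chain, fell from 44.5 ± 1.35 to 22.1 ± 0.311 CPM (SD, n = 2 each, adjusted p = 4.47e-08, edgeR). Of 4 genes of transcriptional regulators (SP1, EP300, MTF2 and CARF), 0 were called higher and 2 lower, the largest change being that of SP1, a factor of GC-rich promoters, at -1.43 (adjusted p = 1.62e-09, edgeR). The second call was that of EP300 (-0.32), which is named after its values were seen, and 1 of the 2 calls was left without the second MET+ library or without the first MET-KO library.

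Oxidants and glucocorticoids also induce metallothioneins, and a list of genes linked to each was read from the same fit. The lists hold regulators as well as responding genes, among them NFE2L2, KEAP1 and NR3C1. Of 16 genes of the oxidant (NRF2) list, 15 were tested, with 4 called higher and 6 lower and a median log2 fold change of -0.20. Counts of calls in this paragraph are to be read against the 27.2% called higher and 26.9% called lower over all genes. NQO1, a quinone reductase, rose from 40.8 ± 0.637 to 121.7 ± 10.1 CPM (SD, n = 2 each, adjusted p = 1.61e-14, edgeR). ABCC2, an export pump, had 365 and 398 counts in MET+ and 2 and 4 in MET-KO cells (adjusted p = 9.45e-21, edgeR). Of 12 genes of the glucocorticoid list, 11 were tested, with 3 called higher and 3 lower and a median of -0.14. KLF9 rose by 1.30 on the log2 scale (adjusted p = 0.000604, edgeR) and CEBPD fell by 2.65 on the log2 scale (adjusted p = 5.65e-16, edgeR). Of 9 glutathione and selenium genes, 8 were tested, with 3 called higher and 3 lower and a median of 0.01. GPX1, a glutathione peroxidase, rose 2.44-fold (adjusted p = 2.81e-11, edgeR), while its intestinal relative GPX2 had 666 and 891 counts in MET+ and 0 in both MET-KO libraries, at least 301-fold lower with 3 counts per library as the limit. Calls toward lower levels in this list numbered 5 without the first MET-KO library. None of these lists had a median as high as the 0.99 of the 8 tested members, which leave out MT1A (0.48). The members and the lists were chosen with earlier results of these data known, and the difference was not tested.

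The profile of MT1E, which had the highest mean CPM of the 9 genes, was compared with that of every other tested gene whose log2 CPM averaged 3 or more, by the Euclidean distance between centred log2 CPM values over the 4 libraries. The 5 nearest were TLE4, GLIS3, ALDH1A3, ABCG2 and TP53TG1, whose log2 fold changes ran from 3.44 to 3.67. With 2 groups of 2 libraries this closeness says little more than that the fold change was alike. ALDH1A3, a retinaldehyde dehydrogenase gene of chromosome 15, stood at 170 ± 3.83 CPM in MET+ and at 1867 ± 56.4 CPM (SD, n = 2 each) in MET-KO cells. The 5 genes lie on chromosomes 4, 7, 9 and 15, none on chromosome 16.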

How the data were processed

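RNA from 2 MET+ and 2 MET-KO samples of LoVo cells was sequenced as QuantSeq 3' libraries. The values deposited by the authors are whole counts of reads per gene, without normalization, for 58825 Ensembl genes and 99 spike-in rows (0 counts in all). The submitters' processing notes name cutadapt 1.16, STAR 2.5.4a, featureCounts 1.6.2 and DESeq2 1.18.1 and the build GRCh38, while the annotation release, the strand setting and the handling of reads that match several genes are not given in the sources used here. Without these, reads of near-identical copies may be dropped or shifted between them. Names and positions came from GENCODE version 29, which held 58552 of the gene IDs.

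Tests were run in R 4.3.3 with edgeR 4.0.16 (filterByExpr, TMM factors 0.949 to 1.06, condition as the one term, quasi-likelihood test, Benjamini-Hochberg adjustment over 13801 genes, threshold 0.05). Standard errors are the log2 fold change divided by the square root of its F value. The alternatives were DESeq2 1.42.0 (Wald test), its size factors, library totals, all genes with a count, a minimum of 10 counts in each library, a replicate block, random thinning of counts to the total of the smallest library (seed 1) and fits without each library in turn. The edgeR and DESeq2 steps were tested on simulated data.

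The members and the gene lists were chosen with earlier results of these data known, and the lists were written from general knowledge. Named genes were the 9 members, MET, SLC30A1, other metallothionein genes with 10 counts in a library, the largest called change in each direction of each list with groups that do not overlap, the nearest tested gene on either side of the cluster, the largest change each way within 1 Mb of it and the 5 genes nearest in profile to MT1E (pseudocount 0.5 CPM). Genes named outside this rule are marked in the text or carry no test. A list of immune markers is not reported here as a whole, and LYZ of that list, like the colon markers, was named after its values were seen. Labels pair no samples beyond a shared replicate number. Figures were drawn with matplotlib 3.10.9.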

Additional observations from a re-analysis of the deposited data

How the results depend on the processing

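Across 12 alternatives, 94 fits of the 8 tested members could be made, and 0 of them changed the direction. The calls of MT1E, MT2A, MT1X and MT1F held in all 12, with log2 fold changes of 3.44 to 3.69, 2.01 to 2.21, 2.14 to 2.60 and 1.23 to 1.55, and that of MT1G held wherever it could be tested, which a minimum of 10 counts in every library did not allow. MT1M was no longer called with DESeq2's Wald test (0.58), MTF1 was no longer called with that test (-0.44) or with library totals (-0.34), and MT3 was called with the replicate block (-1.69) and after thinning (-1.83), and the cause was not tested. Leaving out each library in turn gave 0.26 to 0.84 for MT1M, -0.51 to -0.37 for MTF1 and -6.76 to -0.49 for MT3. The members called lower were then 1 or 2, and they were 1 with DESeq2, with library totals and with at least 10 counts, where fewer genes were tested. Leaving out each library gave 1 or 2 lower regulators, 1 to 3 SLC30 genes called higher and 2 to 5 glutathione and selenium genes called lower. Library totals left 1 regulator lower, no filter raised the other metallothionein genes called higher to 3, and at least 10 counts left 1 glutathione or selenium gene lower. The summed CPM of the 8 metallothioneins in MET+ cells was 206 with library totals, 216 after thinning and 209 to 217 when each library was left out. Library totals raised the median log2 fold change of all genes to 0.11 from 0.01, so that changes are read relative to it there. DESeq2's Wald test called 5760 genes and edgeR 7467.

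The deviations of same-numbered libraries were only weakly and negatively correlated (r = -0.139 across 9400 genes), so the numbers were not taken as pairs. The replicate block gave 5 members higher and 3 lower and called 7055 genes in all, and crossed numbers, chosen after seeing the data, gave 5 and 2 and called 7737.

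Counts of 1 in each MET-KO library limit MT1G to a wide ratio, and counts of 13 or fewer limit MT3.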
